A study of Mus musculus with 7 samples.

Results

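The 10 genes Hhex, Tle3, Bach2, Tbx21, Zeb2, Foxp1, Foxo1, Klf2, Klf3 and Satb1 encode transcription factors and a corepressor that have been linked to memory or to quiescence in lymphocytes. They were chosen by name, with earlier results of these data known, from the 48795 genes of the deposited table. Shares of all genes given beside them are thus a description. The table lists every one of the 10 genes. They were compared between memory B cells (MBCs, 3 libraries) and plasma cells (PCs, 4 libraries), which are alternative outcomes of the germinal center (GC) reaction. The comparison asks which of these regulators separate the outcomes.

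All cells came from spleens of wild-type female C57BL/6 mice of 8 to 12 weeks, taken on day 10 after an intravenous injection of sheep red blood cells, a T cell-dependent antigen. After B cell enrichment on CD43 magnetic beads, MBCs were sorted as B220+ CD138- IgD- CD38+ CD273+ cells and PCs as B220lo CD138+ IgD- cells. RNA was made into cDNA with a Nugen kit and sequenced on an Illumina HiSeq. The labels do not say whether a library came from 1 mouse or from pooled mice, so the p-values measure the spread between these libraries only.

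A B cell that becomes a PC has to silence much of its B cell program. BACH2 and BCL6 repress Prdm1, the gene for the PC factor BLIMP1, and HHEX, a homeobox repressor that recruits corepressors of the TLE family, is required for MBC formation. FOXO1, KLF2, FOXP1 and KLF3 belong to networks that keep lymphocytes small, recirculating and out of the cell cycle, ZEB2 works downstream of T-bet, the product of Tbx21, and SATB1 organizes chromatin loops.

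Promoter sequences are given for Hhex, which fell in PCs, for its partner Tle3, and for Klf2, whose promoter holds the only MEF2 match in the windows searched for the 10 genes. MEF2 factors are known activators of Klf2. The sequences are from RefSeq (GRCm38.p6), 5′ to 3′ on the strand of the gene, and end at the base before the GENCODE start of the gene. They run over chr19:37434591-37434809 (+) for Hhex, chr9:61372116-61372365 (+) for Tle3 and chr8:72318812-72319032 (+) for Klf2. Capitals mark a CCAAT box read on the other strand (ATTGG) in Hhex and Tle3, and the MEF2 match in Klf2.
Hhex promoter: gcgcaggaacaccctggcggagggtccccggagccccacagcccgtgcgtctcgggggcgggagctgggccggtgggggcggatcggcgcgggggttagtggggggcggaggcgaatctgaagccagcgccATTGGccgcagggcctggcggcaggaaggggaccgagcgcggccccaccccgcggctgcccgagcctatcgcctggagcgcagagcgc
Tle3 promoter: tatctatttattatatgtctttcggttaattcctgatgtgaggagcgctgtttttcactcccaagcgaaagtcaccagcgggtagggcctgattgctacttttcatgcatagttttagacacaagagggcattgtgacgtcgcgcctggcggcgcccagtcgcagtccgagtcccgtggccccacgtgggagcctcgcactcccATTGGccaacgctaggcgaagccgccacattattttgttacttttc
Klf2 promoter: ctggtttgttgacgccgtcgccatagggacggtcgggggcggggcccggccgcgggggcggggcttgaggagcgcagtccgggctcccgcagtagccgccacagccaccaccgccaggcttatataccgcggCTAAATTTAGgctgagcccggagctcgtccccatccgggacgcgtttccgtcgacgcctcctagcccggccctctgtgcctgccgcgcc

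RefSeq windows of 300 bases, from 250 before to 50 after a start, were held for 10 of the 10 genes and numbered 19. CCAAT or its reverse complement was in 8 of these 19 windows and in 37.4% of all 32851 windows. In the windows above the match began at position -119 from the RefSeq start for Hhex and at -46 for Tle3. The MEF2 motif was in 1 of the 19 windows, at -118 in Klf2, and in 3.19% of all windows. The letters CACCTG, the E box bound by ZEB factors, were in 4 of the 19 windows and in 20.2% of all. The letters CACACCC, bound by KLF factors, were in 1 of the 19 (Satb1; 7.95% of all), and TGAGTCA, bound by BACH and AP-1 factors, in 1 (Zeb2; 5.2% of all). No member window held GTAAACA (forkhead; 3.65% of all), GGTGTGA (T-box; 3.98%) or GAAAGTG (the core of a BLIMP1 site; 4.81%). Both strands were searched, and the KLF and T-box motifs share the letters GGTGTG. These matches are letters in a window, not measured binding sites.

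Levels are given in scaled TPM. TPM is a read count divided by the length of the gene and set to a fixed total per library. Scaling used 9305 genes found in every library, whose median ratio to their geometric means set the size of a library. Immunoglobulin transcripts took 49.4% to 55.9% of the deposited TPM in PCs and 1.65% to 3.16% in MBCs. Mitochondrial genes took 33.2%, 33.5% and 19.7% in MBC replicates 1 to 3 and 8.10% to 9.80% in PCs. Ribosomal RNA genes, mitochondrial ones included, took 35.7% to 37.5% in MBCs and 20.1% to 23.4% in PCs. With all 3 gene classes removed, Hhex (-4.37, limma, adjusted p = 0.0291) and Bach2 (-2.24, 0.0055) were again the 2 of the 10 genes that were called. Of all genes tested in that fit, 2.55% were called lower. Fold changes are PC minus MBC on log2(scaled TPM + 1), with limma and Benjamini-Hochberg adjustment over the 11573 genes at 1 TPM or more in at least 3 libraries. A gene was called at an adjusted p under 0.05 and a log2 fold change of at least 1 in size. The table holds no read totals. From the spacing of low values, 1 TPM of a 1 kb transcript was estimated at 4.90 to 9.0 reads in MBCs and 7.36 to 12.9 in PCs.

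The library labelled MBC replicate 3 stood apart from the other MBC libraries in its markers and in its likeness to the PC libraries. Its correlation with the PC libraries across all tested genes (r 0.70 to 0.777) was above that with MBC replicates 1 and 2 (0.687 and 0.681), where genes are not independent points. MBC replicates 1 and 2 correlated with each other at 0.675 and with the PC libraries at 0.537 to 0.564, so they were no more alike than either was to the library labelled MBC replicate 3. Genes above 0 numbered 12983, 11527 and 18061 in MBC replicates 1 to 3 and 14463 to 16768 in PCs. Estimated reads per TPM of a 1 kb transcript were 4.90, 5.46 and 9.0 in MBCs. The library labelled MBC replicate 3 also has another title code prefix than the other MBC libraries. Array weights were 0.462, 0.288 and 0.454 in MBCs and 0.711, 5.85, 1.19 and 3.34 in PCs. The lowest weight was thus that of MBC replicate 2, and the weights did not single out the library labelled MBC replicate 3. The part of depth in these correlations was not tested. The summed level of 5 memory surface markers was 297.0, 368.5 and 17.2 in the 3 MBC libraries and 15.2 to 28.7 in PCs, in scaled TPM. Among them Cd38, which the gate required, was at 130.3, 185.7 and 6.77 in the MBC libraries, and Pdcd1lg2, which encodes CD273, at 43.3, 24.4 and 2.59. Ighd, whose product IgD the gate excluded, was at 85.8, 39.9 and 9.55 in MBCs and at 14.2 to 38.8 in PCs. Ighd is named after its values were seen. The summed level of 6 naive and marginal zone B cell markers was 482.4, 635.9 and 198.1 in MBCs and 53.9 to 74.2 in PCs. MBC replicates 1 and 2 were thus the highest libraries in Ighd and in this sum. The summed level of 5 GC markers was 209.0, 241.7 and 484.5 in MBCs and 55.8 to 106.2 in PCs, and that of 10 proliferation genes was 190.6, 221.0 and 1063.5 in MBCs and 516.7 to 760.5 in PCs. PC markers, by contrast, were low in all 3 MBC libraries, with Sdc1, which encodes CD138, at 0, 0 and 0.0585 scaled TPM there and 49.6 to 78.1 in PCs. The fold changes of the tested factors and of the genes around them are therefore given below also without this library. The part that these marker levels have in the results was not tested. In such bulk libraries, fewer cells of a type and less RNA per cell cannot be told apart.

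Of the 10 genes, 9 passed the filter and Tbx21 did not. In PCs 2 of the 9 were called lower (Hhex and Bach2), where 2.14% of all tested genes were, 0 were called higher, where 6.41% of all were, and 7 were not called. At an unadjusted p under 0.05, 4 were lower and 0 higher. The share of all tested genes at that threshold is not given, so these counts do not show whether the 9 genes differ from the rest. The median log2 fold change was -1.10 for the 9 genes and 0.14 for all tested genes. Without the library labelled MBC replicate 3, 6 of the 9 were called lower, where 7.94% of all tested genes were, and the median was -2.0 against 0.19 for all genes. The additional calls were Tle3, Zeb2, Klf2 and Satb1. The library labelled MBC replicate 3 was the lowest MBC library for 8 of the 9 (28.7% of all tested genes). Leaving it out therefore raised the MBC mean of these 8. Without MBC replicate 1 or MBC replicate 2 instead, 1 of the 9 was called lower, where 1.22% and 1.39% of all tested genes were.

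**Figure D1:**
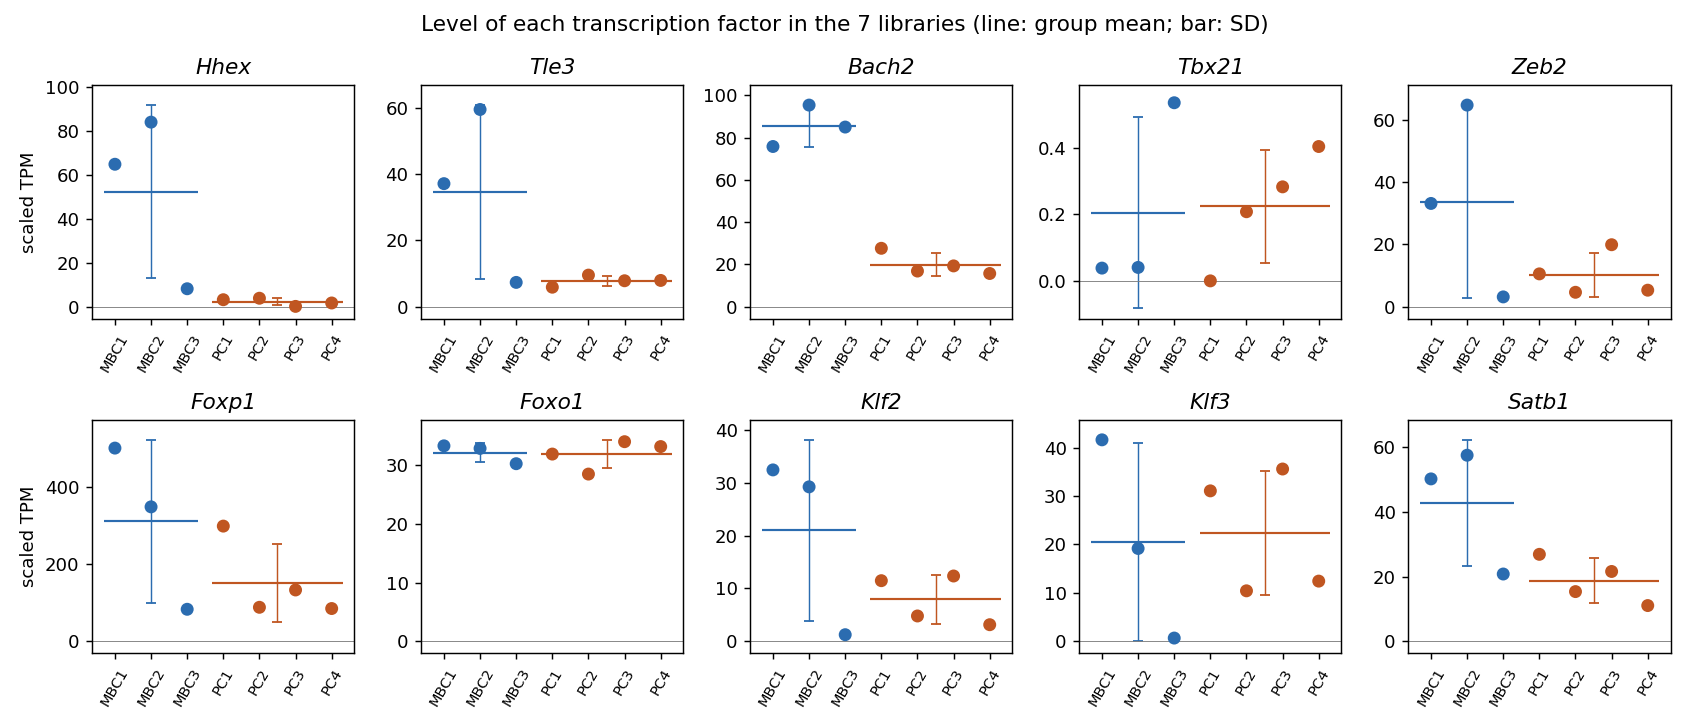
Scaled TPM of each of the 10 genes (vertical axes, linear, 1 scale per gene) in the 3 MBC libraries (blue) and the 4 PC libraries (orange). Points are libraries, horizontal lines group means and vertical bars SD, and Hhex and Bach2 are the tested genes whose groups do not overlap.

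Hhex and Tle3, which encode the homeobox repressor and a corepressor it can recruit, were high in the same pair of MBC libraries. Hhex (ENSMUSG00000024986, chr19:37434810-37440731, plus strand, GRCm38) was at 64.7, 83.9 and 8.13 scaled TPM in MBC replicates 1 to 3. In PC replicates 1 to 4 it was at 3.15, 3.82, 0.111 and 1.66. Every MBC library lay above every PC library, with the library labelled MBC replicate 3 the nearest to the PCs. MBCs averaged 52.3 ± 39.4 (SD, n = 3) and PCs 2.18 ± 1.65 (SD, n = 4), and the log2 fold change was -3.74 ± 0.85 (SE; limma, adjusted p = 0.0247). Without the library labelled MBC replicate 3 the change was -4.75 (adjusted p = 0.0031). The call was lost, with the direction kept, when MBC replicate 1 (-3.33, adjusted p = 0.0884), MBC replicate 2 (-3.14, 0.0837), PC replicate 1 (-3.94, 0.0511), PC replicate 3 (-3.30, 0.0695) or PC replicate 4 (-3.72, 0.0664) was left out.

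Tle3 (ENSMUSG00000032280, chr9:61372366-61418497, plus strand) was at 37.1, 59.5 and 7.31 scaled TPM in MBCs and at 5.87, 9.51, 7.81 and 7.90 in PCs. MBC replicates 1 and 2 were above all PC libraries, and the library labelled MBC replicate 3 lay inside the PC range. With all libraries the difference did not pass the test (34.6 ± 26.2 SD, n = 3, against 7.77 ± 1.49 SD, n = 4; log2 fold change -1.63, SE 0.65, limma, adjusted p = 0.162). Without the library labelled MBC replicate 3 it did (-2.47, adjusted p = 0.0056).

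Bach2, the repressor of the PC program in B cells, was called lower in PCs whichever library was left out. Bach2 (ENSMUSG00000040270, chr4:32238804-32586108, plus strand) was at 75.8, 95.4 and 85 scaled TPM in MBCs and at 27.6, 16.8, 19.3 and 15.7 in PCs. The groups did not overlap, and unlike the other 8 tested genes Bach2 was not lowest among MBCs in the library labelled MBC replicate 3. MBCs averaged 85.4 ± 9.80 (SD, n = 3) and PCs 19.9 ± 5.38 (SD, n = 4), and the log2 fold change was -2.08 ± 0.34 (SE; limma, adjusted p = 0.0048). With 1 library left out in turn, the change stayed between -2.24 and -1.98 and the adjusted p at 0.0254 or less, at -2.08 (0.0067) without the library labelled MBC replicate 3. Of the genes that overlap Bach2, the intronic Bach2it1 reached 15.5 (MBC replicate 1) and the small RNA gene Gm24371 7.91 scaled TPM (MBC replicate 2) on the same strand, and the antisense Bach2os 1.44.

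Tbx21 and Zeb2 belong to the T-bet program of effector and atypical memory lymphocytes. Tbx21 (ENSMUSG00000001444, chr11:97098071-97115331, minus strand) was low in every library. It was at 0.0384, 0.0404 and 0.536 scaled TPM in MBCs. In PCs it was listed at 0 in replicate 1 and was at 0.208, 0.283 and 0.404 in replicates 2 to 4. By estimate the MBC values rest on 1.0, 0.952 and 28.8 reads and the PC values on 0, 4.81, 4.93 and 10.9 reads. The groups overlapped, and Tbx21 was at 1 TPM or more, as deposited, in 1 library, the library labelled MBC replicate 3. It did not enter the main test, and among all genes above 0 it changed by 0.037 on the log2 scale (limma, adjusted p = 0.923). Adding 1 to values this low flattens differences between them, so that fit cannot show whether the groups differ.

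Zeb2 (ENSMUSG00000026872, chr2:44983632-45117395, minus strand) was at 33.2, 64.8 and 3.13 scaled TPM in MBCs and at 10.5, 4.61, 19.9 and 5.28 in PCs. MBC replicates 1 and 2 lay above all PC libraries and the library labelled MBC replicate 3 below them. The difference did not pass with all libraries (33.7 ± 30.8 SD, n = 3, against 10.1 ± 7.06 SD, n = 4; log2 fold change -1.13, SE 0.90, limma, adjusted p = 0.485). With the library labelled MBC replicate 3 left out it passed (-2.30, adjusted p = 0.0341). MBC replicates 1 and 2, which held the most Zeb2, had about 1 read of Tbx21 each. Of the genes that T-bet-positive B cells are known for, Itgax (CD11c) was under the filter, Itgam was not called, and Cxcr3 was higher in PCs (2.76 ± 2.27 SD, n = 3, against 18.9 ± 4.50 SD, n = 4; log2 fold change 2.63, SE 0.59, limma, adjusted p = 0.0240; 1.98, 0.0152 without the library labelled MBC replicate 3). Fcrl5, an Fc receptor-like gene of such cells, was at 21.9, 67.2 and 0.507 in MBCs and at 0.645 to 1.58 in PCs. It was not called with all libraries (-2.59, limma, adjusted p = 0.184) and was called lower in PCs without the library labelled MBC replicate 3 (-4.16, 0.0032). Fcrl5 and Itgam are named after their values were seen.

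The forkhead genes Foxp1 and Foxo1 differed in how much they varied between libraries. Foxp1 (ENSMUSG00000030067, chr6:98925338-99522721, minus strand), whose product is needed for early B cell development, had the highest level of the 10 genes in both groups. It was at 502.0, 349.4 and 83.4 scaled TPM in MBCs and at 299.4, 88.5, 133.6 and 85.3 in PCs. MBC replicates 1 and 2 were above all PC libraries and the library labelled MBC replicate 3 was below all of them. The difference did not pass the test (log2 fold change -0.89, SE 0.65, limma, adjusted p = 0.445), nor did it with the library labelled MBC replicate 3 left out (-1.66, adjusted p = 0.0578). Gm20696, a protein-coding gene on the same strand that overlaps Foxp1, was at 1.45 to 14.8 scaled TPM, and the miRNA gene Gm49348 inside it at 46.7 in MBC replicate 2 and listed at 0 elsewhere.

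Foxo1 (ENSMUSG00000044167, chr3:52268336-52353221, plus strand), the factor that PI3K signaling keeps out of the nucleus, hardly varied. It was at 33.3, 32.9 and 30.3 scaled TPM in MBCs and at 31.9, 28.5, 34.0 and 33.2 in PCs, so that the groups lay over each other. The log2 fold change was -0.01 (95% interval -0.72 to 0.69; limma, adjusted p = 0.985), and without the library labelled MBC replicate 3 it was -0.05 (adjusted p = 0.916). On TPM as deposited Foxo1 was called lower in PCs (-1.30, adjusted p = 0.0179). The median of all tested genes was then -0.91 instead of 0.14. On that scale 6 of the 9 tested factors were called lower in PCs (Hhex, Tle3, Bach2, Foxp1, Foxo1 and Satb1), where 26.1% of all tested genes were.

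Klf2 and Klf3 encode zinc-finger factors of lymphocyte trafficking and quiescence. Klf2 (ENSMUSG00000055148, chr8:72319033-72321656, plus strand) was at 32.4, 29.2 and 1.26 scaled TPM in MBCs and at 11.5, 4.80, 12.4 and 3.15 in PCs. As for Zeb2 and Foxp1, the PC values lay between those of MBC replicates 1 and 2 and that of the library labelled MBC replicate 3. The low value of that library rests on an estimated 48.6 reads and is not at the limit of detection. The difference did not pass with all libraries (log2 fold change -0.73, SE 0.94, limma, adjusted p = 0.686) and passed without that library (-2.0, adjusted p = 0.0440).

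Klf3 (ENSMUSG00000029178, chr5:64803388-64832901, plus strand) was at 41.6, 19.2 and 0.682 scaled TPM in MBCs and at 31.1, 10.4, 35.6 and 12.4 in PCs. The library labelled MBC replicate 3 was again the lowest of the 7, but MBC replicates 1 and 2 overlapped the PCs. Its log2 fold change was 0.87 (SE 0.99; limma, adjusted p = 0.644) with all libraries and -0.51 (adjusted p = 0.592) without the library labelled MBC replicate 3, and passed in neither fit.

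Satb1 (ENSMUSG00000023927, chr17:51736187-51833290, minus strand), the chromatin organizer, was at 50.1, 57.5 and 20.8 scaled TPM in MBCs and at 26.9, 15.4, 21.6 and 11.1 in PCs. MBC replicates 1 and 2 lay above all PC libraries and the library labelled MBC replicate 3 inside their range. The difference did not pass with all libraries (42.8 ± 19.4 SD, n = 3, against 18.7 ± 6.94 SD, n = 4; log2 fold change -1.10, SE 0.48, limma, adjusted p = 0.194). Without the library labelled MBC replicate 3 it was called (-1.54, adjusted p = 0.0353).

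**Figure D2:**
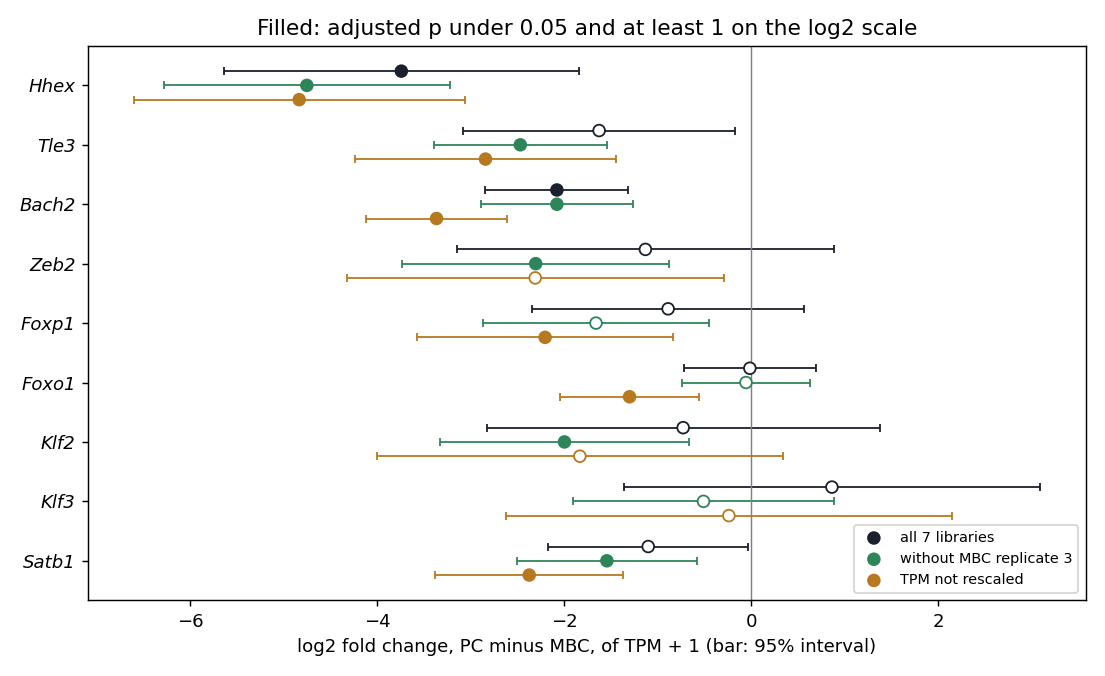
Log2 fold change, PC minus MBC, of TPM + 1 for the 9 tested genes (horizontal axis, bars 95% intervals) with all 7 libraries, without MBC replicate 3 and with TPM that was not rescaled. Filled points passed the call, which held in all 3 fits for Hhex and Bach2, while Foxo1 was called in the fit on TPM that was not rescaled and Klf3 in none.

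Across the 9 genes, the library labelled MBC replicate 3 was the lowest MBC library for 8, where it was for 28.7% of all tested genes. It was the lowest of all 7 libraries for 4 (Zeb2, Foxp1, Klf2 and Klf3), against 9.97% of all tested genes. Relative to the PC range it was above it for Hhex and Bach2, within it for Tle3, Foxo1 and Satb1, and below it for the other 4. The groups did not overlap for 2 of the 9, both higher in MBCs, where 8.68% of all tested genes had every MBC library above every PC library. When the libraries were limited to the title code prefix that most of them carry (MBC replicates 1 and 2, PC replicates 1 to 3), 3 of the 9 were called lower, where 3.6% of all tested genes were, namely Hhex (-4.73), Bach2 (-1.98) and Tle3 (-2.48). What the title codes mark is not stated in the labels.

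The PC libraries also differed among themselves. Bach2, Zeb2, Foxp1, Klf2, Klf3 and Satb1 were each higher in PC replicates 1 and 3 than in PC replicates 2 and 4. This is given as a description, without the share of all tested genes in that order. T cell marker transcripts summed to 15.3, 30.5, 40.2 and 37.1 scaled TPM in PC replicates 1 to 4 and to 14.3, 0 and 24.3 in MBCs, and NK cell marker transcripts to 7.20, 11.5, 23.6 and 5.74 in PCs and to at most 0.107 in MBCs. Of these lists, Lck made up nearly all of the T cell sum in MBCs, at 14.3, 0 and 23.0, and was at 0.629 to 5.03 in PCs. Lck is named after its values were seen. Cd3e was at 0, 0 and 0.658 in MBCs and at 3.86 to 14.2 in PCs. Trac was at 2.5, 6.50, 23.1 and 16.0 in PCs and at 0, 0 and 0.234 in MBCs, and Nkg7 was listed at 0 in all MBC libraries and in PC replicate 1. Myeloid markers summed to 2.27 to 25.5 in MBCs and 1.73 to 7.02 in PCs, and the pair of plasmacytoid dendritic cell markers to 0 to 13.3 and 0.234 to 1.23. The part of other cells in the values of Klf2, Zeb2 or Satb1, which T cells and NK cells also express, was not tested.

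Because TPM is divided by gene length, levels can be ordered between genes. In MBCs the mean scaled TPM ran from Foxp1 (311.6) over Bach2 (85.4), Hhex (52.3), Satb1 (42.8), Tle3 (34.6), Zeb2 (33.7), Foxo1 (32.2), Klf2 (20.9) and Klf3 (20.5) to Tbx21 (0.205). In PCs it ran from Foxp1 (151.7) over Foxo1 (31.9), Klf3 (22.4), Bach2 (19.9), Satb1 (18.7), Zeb2 (10.1), Klf2 (7.94), Tle3 (7.77) and Hhex (2.18) to Tbx21 (0.224). The SD ranges of neighbours overlapped from Bach2 to Klf3 in MBCs and from Foxo1 to Tle3 in PCs.

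The share of each factor in the TPM of its own gene family does not depend on how libraries were scaled. Bach2 took 95.1%, 98.8% and 99.1% of the TPM of Bach1 and Bach2 together in MBCs and 82.7%, 82.3%, 71.1% and 79.4% in PCs, where Bach1 is its broadly expressed relative. The shares did not overlap, MBCs averaging 97.7% ± 2.21 (SD, n = 3) and PCs 78.9% ± 5.42 (SD, n = 4), a change of -18.8 points in PCs. The exact permutation p (two-sided, 35 assignments) was 0.0286, the smallest that 3 against 4 libraries can give, and 0.200 after adjustment over the 7 shares computed. Bach1 itself averaged 1.96 ± 1.69 scaled TPM in the MBC libraries (SD, n = 3) and 5.32 ± 1.92 in the PC libraries (SD, n = 4), which did not pass the test (limma, adjusted p = 0.225, and 0.297 without the library labelled MBC replicate 3). Without that library the change in the Bach2 share was -18.0 points.

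Tle3 took 40.0%, 87.9% and 15% of the TPM of 6 TLE genes in MBCs and 10.4% to 19.6% in PCs. The library labelled MBC replicate 3 lay in the PC range, and the test of this share gave p = 0.114 (exact two-sided permutation test). Foxo1 took 63.4%, 77.3% and 88.3% of the TPM of 4 FOXO genes in MBCs and 62.2% to 69.0% in PCs (exact permutation p = 0.114). Foxp1 took 85.4% to 99.7% of the FOXP family in MBCs and 93.3% to 97.8% in PCs. Klf2 took 14.9%, 31.6% and 3.28% of 17 KLF genes in MBCs and 5.06% to 13.2% in PCs, and Klf3 19.1%, 20.7% and 1.77% against 17.5% to 37.9%. Zeb2 took 57.4%, 40.9% and 14.5% of Zeb1 and Zeb2 together in MBCs and 23.4% to 44.8% in PCs. The groups overlapped for all shares but that of Bach2.

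**Figure D3:**
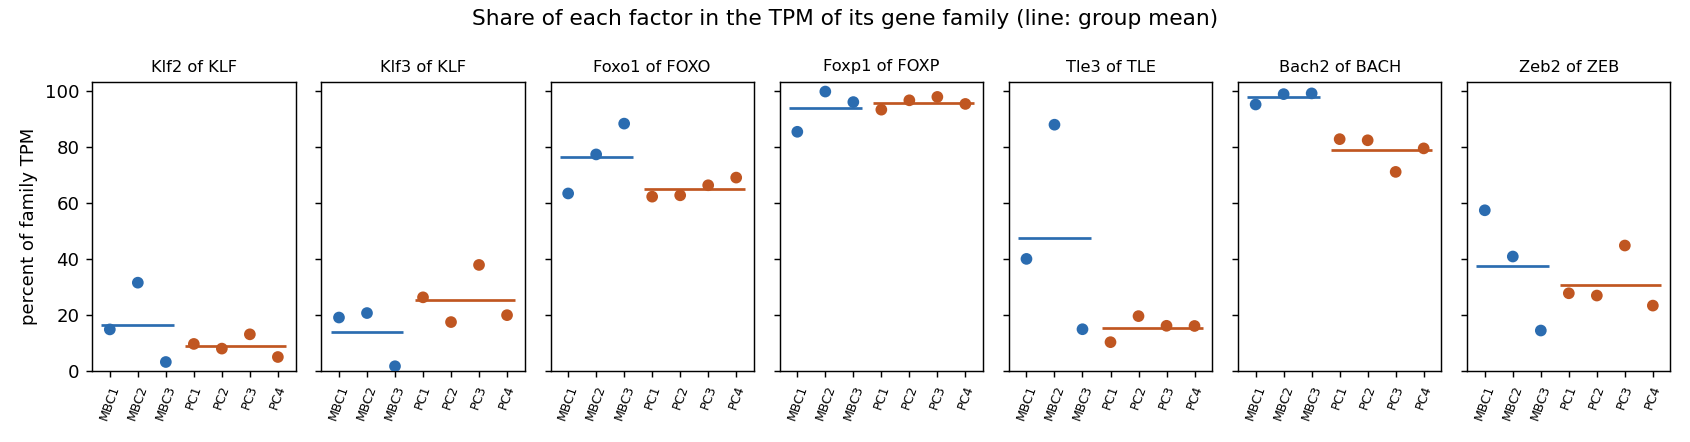
Percent of the TPM of a gene family taken by each factor (vertical axis) in the 3 MBC (blue) and 4 PC (orange) libraries, with points for libraries and lines for group means. The groups are separate for Bach2, at 95.1% or more in MBCs and 82.7% or less in PCs, and overlap for the other 6 shares.

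The relatives of the factors gave no calls, where the shares of all tested genes would give few among so small a number. Of 32 further KLF, FOXO, FOXP, TLE, BACH and small MAF, ZEB and T-box genes, 18 were tested and limma called 0 higher and 0 lower in PCs, against 6.41% and 2.14% of all tested genes. At an unadjusted p under 0.05, for which the share of all tested genes is not given, 1 was higher and 1 lower. Without the library labelled MBC replicate 3 the calls were again 0 and 0. Foxo3, which shares targets with Foxo1, was higher at an unadjusted p only (6.29 ± 2.84 SD, n = 3, against 15.6 ± 2.73 SD, n = 4; log2 fold change 1.26, SE 0.46, limma, adjusted p = 0.135, and 0.139 without that library). Foxo3 and Mafk, a small MAF partner of BACH proteins (7.02 ± 3.60 SD, n = 3, and 1.95 ± 1.59 SD, n = 4; -1.52, adjusted p = 0.181, and 0.0782 without that library), are named after their values were seen.

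Among partners and targets of HHEX and BACH2, the genes for PC factors rose in PCs. Of 5 genes, Prdm1 and Irf4 were called higher and 0 were called lower. Prdm1, the BLIMP1 gene and a target of repression by BACH2, was at 9.98, 0 and 1.89 scaled TPM in MBCs and at 91.3, 103.7, 112.1 and 106.2 in PCs (log2 fold change 5.04, SE 0.69, limma, adjusted p = 0.0017). Irf4, which drives PC differentiation at high levels, was at 29.9, 12.0 and 11.4 in MBCs and at 221.9, 173.7, 197.5 and 157.8 in PCs (3.45, SE 0.39, adjusted p = 0.00054). The groups did not overlap for either gene, and both calls held with the library labelled MBC replicate 3 left out (4.97, adjusted p = 0.0059, and 3.22, adjusted p = 0.0017).

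Bcl6, the repressor that maintains the GC program, was at 26.7, 15.6 and 104.7 scaled TPM in MBCs and at 14.6, 9.29, 17.6 and 18.3 in PCs (log2 fold change -1.24, SE 0.61, limma, adjusted p = 0.252). With the library labelled MBC replicate 3 left out the change shrank to -0.47 (adjusted p = 0.482). It was highest in the library labelled MBC replicate 3, the opposite order to that of Hhex. Ski, a corepressor that has been linked to Hhex in memory, was at 20.8, 0.876 and 0.365 in MBCs and at 1.79, 1.71, 2.3 and 2.11 in PCs (-0.36, adjusted p = 0.837). A single MBC library thus carried most of the Ski signal, and without MBC replicate 1 the sign turned (0.89, adjusted p = 0.305), while without MBC replicate 3 it was -1.11 (0.424). Bcl2, the survival gene, was at 24.8, 64.3 and 0.663 in MBCs and at 7.80 to 19.1 in PCs, and was called lower in PCs once MBC replicate 3 was dropped (-1.80, limma, adjusted p = 0.0474; 0.906 with all libraries). Bcl2 is named after its values were seen.

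Known targets of FOXO1 and KLF2 went both ways. Of 14 genes 13 were tested, 2 were called higher in PCs and 1 lower, where 6.41% and 2.14% of all tested genes were, and the median log2 fold change was 0.51 against 0.14 for all genes. With the library labelled MBC replicate 3 left out, 2 were called higher and 3 lower, where 13.8% and 7.94% of all were, and the median was 0.16 against 0.19. Irs2, an insulin receptor substrate under FOXO control, was at 3.36, 1.89 and 1.09 scaled TPM in MBCs and at 28.7, 21.4, 25.7 and 22.2 in PCs (3.09, SE 0.45, limma, adjusted p = 0.0024). Il7r, the interleukin 7 receptor chain, was at 0.439, 0.128 and 0.0292 in MBCs and at 8.40, 5.83, 4.67 and 5.62 in PCs (2.56, SE 0.46, adjusted p = 0.0080), beside the T cell marker values above. Sesn3, a stress-response gene induced by FOXO factors, was at 61.7, 68.4 and 35.9 in MBCs and at 3.73, 8.67, 13.6 and 9.76 in PCs (-2.56, SE 0.48, adjusted p = 0.0098). The groups were separate for Irs2, Il7r and Sesn3, while the Foxo1 values given above overlapped. Their calls held with the library labelled MBC replicate 3 left out (2.84, 2.46 and -2.84, with adjusted p of 0.0032, 0.0129 and 0.0076).

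S1pr1 and Itgb7, recirculation genes that KLF2 is known to activate, were lowest where Klf2 was lowest, in the library labelled MBC replicate 3. That library was the lowest of all 7 for 9.97% of all tested genes. S1pr1, the exit receptor for sphingosine phosphate, was at 31.9, 48.4 and 1.19 scaled TPM in MBCs and at 7.86, 10.9, 7.58 and 8.71 in PCs. Itgb7, an integrin chain of lymphocyte homing, was at 24.2, 24.5 and 1.42 in MBCs and at 3.11, 3.27, 1.76 and 4.88 in PCs. Among PCs they did not follow Klf2. Both were lowest in PC replicate 3, where Klf2 was highest (12.4), and Itgb7 was highest in PC replicate 4, where Klf2 was lowest (3.15). Neither S1pr1 nor Itgb7 was called with all libraries (limma, adjusted p = 0.717 and 0.310), and each was called lower in PCs without the library labelled MBC replicate 3 (-2.06 and -2.63, with adjusted p of 0.0096 and 0.0093). Both genes are named after their values were seen.

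Of 10 genes for quiescence factors, 1 was called higher and 2 lower in PCs, where 6.41% and 2.14% of all tested genes were. With the library labelled MBC replicate 3 left out, 1 was called higher and 3 lower, the addition being Elf4 (-1.84, limma, adjusted p = 0.0194; 0.0609 with all libraries), an ETS factor of quiescent T cells that is named after its values were seen. Btg1, an antiproliferative gene of resting lymphocytes, was at 166.3, 139.6 and 47.8 scaled TPM in MBCs and at 27.3, 15, 21.1 and 17.3 in PCs (log2 fold change -2.34, SE 0.47, limma, adjusted p = 0.0148). Ets1, a factor that restrains PC formation, was at 72.3, 168.8 and 81.6 in MBCs and at 22.0, 32.4, 32.2 and 32.8 in PCs (-1.73, SE 0.39, adjusted p = 0.0233). Btg2, a relative of Btg1 that is also a p53 target, moved the other way, at 17.3, 37.5 and 18.6 in MBCs and 74.8, 87.7, 77.8 and 66.1 in PCs (1.69, SE 0.37, adjusted p = 0.0201). The groups did not overlap for any of these genes. The calls of Btg1, Btg2 and Ets1 held with the library labelled MBC replicate 3 left out (adjusted p = 0.0015, 0.0233 and 0.0172). Leaving out 1 other library ended the Btg1 call for MBC replicate 1 (-2.0, adjusted p = 0.0522) and PC replicate 2 (-2.22, 0.0529), the Btg2 call for MBC replicate 1 (1.49, 0.0572) and each PC library (1.62 to 1.75, 0.0540 to 0.0847), and the Ets1 call for each PC library (-1.78 to -1.59, 0.0620 to 0.0679). The Cxcr3 call given above also ended without each PC library (2.5 to 2.76, 0.0616 to 0.0989).

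**Figure D4:**
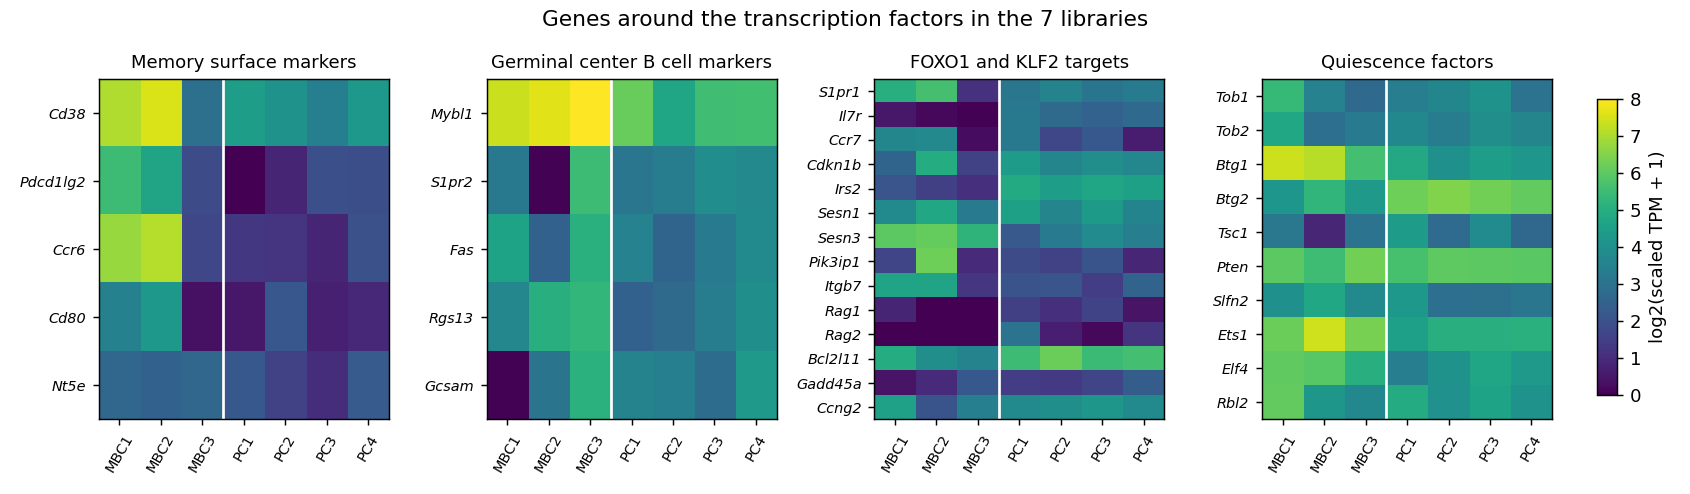
Log2(scaled TPM + 1), by color from 0 to 8, of memory surface markers, GC B cell markers, FOXO1 and KLF2 targets and quiescence factors (rows) in the 7 libraries (columns, MBCs left of the white line). The column of MBC replicate 3 is dark for Cd38, Ccr6 and S1pr1 and bright for Mybl1, at 6.77, 2.26, 1.19 and 336.2 scaled TPM.

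The labelled identities were checked on marker genes. Of 4 PC markers all were called higher in PCs, with Jchain at 62.2 to 136.6 scaled TPM in MBCs and 7626 to 13200.4 in PCs. Of 4 B cell markers, 2 were called lower in PCs (Pax5 and Ms4a1), the strongest being Pax5 (log2 fold change -3.46, limma, adjusted p = 0.0063; -3.99, 0.0038 without the library labelled MBC replicate 3). Of 5 memory surface markers, 0 were called with all libraries, 2 were lower at an unadjusted p under 0.05, and 4 were called lower in PCs without the library labelled MBC replicate 3. Of 6 markers of naive and marginal zone B cells, Fcer2a and Cr2 were called lower and Cd9 higher, and of 5 GC markers Mybl1 was called lower. Of the 10 proliferation genes, 0 were called with all libraries and 6 were called higher in PCs without the library labelled MBC replicate 3, where 13.8% of all tested genes were. Trac and Cd3e were called higher in PCs among 3 tested T cell markers, and 0 of 1 tested B1 marker, 0 of 1 NK marker and 0 of 2 myeloid markers were called, of which the B1 and the NK marker were higher at an unadjusted p under 0.05.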

How the data were processed

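RNA of 3 MBC and 4 PC libraries was sequenced, with groups and replicates as the sample descriptions give them. The authors deposited 1 table of TPM for 48795 Ensembl genes. The submitters' processing notes name STAR 2.5.2a, RSEM 1.3.0, DESeq2 1.18.1 and GRCm38 without roles. Whether counting used strand is not given in the sources used here, so values of overlapping genes are uncertain. Symbols and places are from GENCODE M21 (48349 genes matched) and promoters from RefSeq GRCm38.p6. The deposited TPM was rescaled by the median ratio over 9305 genes, and log2(scaled TPM + 1) was tested with limma 3.58.1 in R 4.3.3 (lmFit, eBayes with trend) in all 7 libraries without covariates, since the body of the study states no test for them. This scale understates changes of low genes. The procedure was tested on simulated data. Named genes were the 10 members, up to 4 called genes per list and direction, Prdm1, Irf4, Bcl6 and Ski, the gene most like each member, and markers that moved with a member. Also named were Bach1, as the other gene of the Bach2 share, and genes that overlap a member. Most other named genes are marked in the text. The members, lists and motifs were chosen with earlier results of these data known. Some genes of these lists, and a share that needs one of them, are not reported here.

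Depth was estimated from low values of genes with a single transcript, of which 76.4% to 84.9% lay within 0.15 of a whole number of reads. By coincidence 30.0% would, had the worth of a read been fixed in advance. It was fitted to bring these same values near whole numbers, so these shares do not test the estimate. A floor of 3 reads of a 1 kb transcript was 0.334 to 0.613 TPM in MBC and 0.232 to 0.407 TPM in PC libraries, and covers counting error only. Replicate numbers and title codes were checked for pairing by correlating deviations from group means. Alternatives were TPM as deposited, immunoglobulin, mitochondrial and ribosomal RNA genes removed, quantile normalization, a pseudocount of 0.25, no filter, leaving out each library, blocks, the title code prefix as a term, the more frequent prefix alone and array weights. Python 3.11.15, pandas 2.3.3, numpy 2.4.6, scipy 1.17.1 and matplotlib 3.10.9 were used.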

Additional observations from a re-analysis of the deposited data

Results flagged for a closer look

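Of 40 results of named genes and shares, each examined over the 4 PC libraries for a library far from the others, 1 stood out, where chance gives about 2. In PC replicate 1, Ets1 was at 22.0 scaled TPM, against 32.2 to 32.8 in the others.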

How the results depend on the processing

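The number of the 10 factors called lower in PCs was 2, where 2.14% of all tested genes were. It was 6 on TPM as deposited (26.1% of all). It was 1 each without the filter on low values (0.577% of all), with the replicate block (0.518%) and with array weights (1.56%). Leaving out single libraries gave 1 to 6, where 0.786% to 7.94% of all were called lower. The call that was lost was that of Hhex without the filter (adjusted p = 0.0952) and with array weights (0.0641), and that of Bach2 with the replicate block (-1.98, adjusted p = 0.0835). The number called higher was 0 in every alternative, where 2.05% to 13.8% of all tested genes were. Klf3 turned sign on TPM as deposited (-0.24), without MBC replicate 3 (-0.51, in a range to 1.82 without 1 library) and within the more frequent title code prefix (-0.30). Foxo1 turned from -0.01 to 0.01 without MBC replicate 1, 0.0036 without MBC replicate 2, and 0.039 without PC replicate 2 and with title codes as a block, within a range of -0.054 to 0.039 without 1 library. Ski turned without MBC replicate 1 (0.89, in a range from -1.11).

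Of the genes in the lists, 13 were called higher (7 with the replicate block, 8 with title codes as a block, 10 to 19 without 1 library) and 8 lower (25 on TPM as deposited, 5 with the replicate block, 14 within the more frequent prefix, 6 to 19 without 1 library). Over all genes, 742 were called higher and 248 lower. The counts were 472 and 3018 on TPM as deposited, 433 and 289 without immunoglobulin, mitochondrial and ribosomal RNA genes, 628 and 487 after quantile normalization, 437 and 123 without the filter, 390 and 60 with the replicate block, 434 and 83 with title codes as a block, 417 lower within the more frequent prefix, and 451 to 1592 and 91 to 919 without 1 library. Of the 990 called genes, 965 were also called without MBC replicate 3. Differences in share ranged without 1 library from -20.0 to -16.1 points for Bach2, -48.4 to -11.9 for Tle3, -17.7 to -5.26 for Foxo1, -2.10 to 5.07 for Foxp1, -14.2 to -0.0934 for Klf2, 5.5 to 15 for Klf3 and -18.4 to 3.04 for Zeb2. The causes were not tested.

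Replicate numbers did not follow the title codes. MBC replicates 1, 2 and 3 shared a code with PC replicates 1, 3 and 4. Deviations from the group means correlated at 0.109, -0.0398 and -0.0832 for equal numbers and at 0.109, -0.00436 and 0.222 for equal title codes. Unequal codes gave -0.176 to 0.152, and the equal code gave the highest value for MBC replicates 1 and 3. A pairing by title code is thus not excluded. With title codes as a block, Hhex (-4.01, limma, adjusted p = 0.0426) and Bach2 (-2.01, 0.0490) were called. Of the values for single genes, 476 kept their direction and side of the threshold, 50 fell short of it, 10 newly passed and 8 turned. With 3 against 4 libraries, a share adjusted over 7 tests needs several at the smallest p to pass. Low genes such as Tbx21 rest on few reads in several libraries.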

Other observations

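For each tested factor, the tested gene whose log2(scaled TPM + 1) was most like it over the 7 libraries is given as a description. The points share the group difference and the library labelled MBC replicate 3, and each gene is the best of 11573 tested over 7 points. Hhex was most like Rabep2 (r = 0.998), at 39.0, 44.3 and 8.68 scaled TPM in MBCs and 1.53 to 6.66 in PCs. Tle3 was most like Smug1 (r = 0.994), a base excision repair gene, at 13.6, 21.4 and 0.824 in MBCs and 0.629 to 1.24 in PCs. Bach2 was most like Nxpe2 (r = 0.991), at 25.2, 30.4 and 23.6 in MBCs and 0.565 to 4.33 in PCs. Satb1 was most like Syk (r = 0.998), the B cell receptor kinase, at 106.3, 122.1 and 47.8 in MBCs and 28.0 to 56.4 in PCs.

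Zeb2 was most like Fbxl12 (r = 0.991), Foxp1 like Gprasp1 (r = 0.988), Klf2 like Mbtps1 (r = 0.990) and Klf3 like Ppfibp2 (r = 0.977). All of Fbxl12, Gprasp1, Mbtps1 and Ppfibp2 were lowest of the 3 MBC libraries in the library labelled MBC replicate 3. Foxo1, which varied least, had the lowest best value (Gm24447, r = 0.923).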
